A study of Mus musculus with 8 samples.

Results

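Tumour cells of 3 liver and 3 subcutaneous allografts of N2N1G, a line established from mouse small cell lung cancer, were compared across all genes. A cell was taken as a tumour cell when it had at least 500 detected genes, at most 10% mitochondrial unique molecular identifiers (UMIs), and at least 0.2% of its UMIs from eGFP, the reporter transcript, and Mycl, a Myc family gene, together. This rule kept 28241 cells, 13023 from liver and 15218 from subcutaneous tumours, of 29010 cells that passed the quality filters and 30100 barcodes in these 6 libraries. All 8 libraries of the study held 38460 barcodes. Because eGFP and Mycl chose the cells, neither gene is treated as a result.

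Each allograft was started with 1000000 cultured N2N1G cells and collected after 3 weeks. Liver tumours were seeded by injection into the tail vein, and subcutaneous tumours were placed in the flank by direct injection, as were the 2 brain tumours of the same study. Tumours were dissociated, viable single cells were sorted, and 3' mRNA libraries were made on the 10x Genomics droplet platform. Tissue and route of entry therefore cannot be told apart, all groups carry 1 cell line, and the genotype, strain, age and sex of the host mice were not given in the sources used here. The labels number the allografts but do not say whether they came from separate mice, so p-values measure the spread between these libraries.

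The chosen cells held transcripts of neuroendocrine tumour cells at both sites. Of 15 markers of neuroendocrine lung tumour cells, all were detected well enough to be tested, and their summed level was 4283 to 5271 counts per 1000000 UMIs (CPM) in the liver and 4633 to 5030 CPM in the subcutaneous tumour cells. Cells left out by the eGFP and Mycl rule had sums of 3532, 2767 and 4133 CPM in liver and 1083, 4065 and 4218 CPM in subcutaneous libraries. These markers therefore do not sharply separate chosen from left-out cells in most libraries. Between 99.4% and 99.8% of the chosen cells of each library had an eGFP UMI, which follows largely from the rule. Summed UMIs of tumour cells were 41703428 to 62047017 per library, with medians of 9250 to 10542 UMIs per cell. At the 0.2% bound, 21 to 62 cells per library lay just inside (0.20% to 0.25%) and 11 to 49 just outside (0.15% to 0.20%).

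Subcutaneous replicate 1 stood apart on the first axis of a principal component analysis of the 6 libraries (43.9% of the variance). It lay at 36.1 there, the liver libraries between -15.5 and -11.0, and subcutaneous replicates 2 and 3 at 2.43 and 1.12. On the second axis (35.1%) it lay at 12.7, near liver replicates 1 and 2 (14.5 and 15.4). Liver replicate 3 lay at -1.15, and subcutaneous replicates 2 and 3 lay apart at -22.8 and -18.7. Chi-square per gene, a measure of how far counts differ, was 6.07 between subcutaneous replicates 2 and 3. It was 27.3 to 85.8 for the other pairs within a site. The median share of UMIs from eGFP and Mycl was 0.603% in subcutaneous replicate 1, against 0.842% to 0.935% in the others. RNA of host cells was low but uneven. The summed level of 13 macrophage or Kupffer cell markers was 44.0 CPM in the tumour cells of subcutaneous replicate 1 and 2.05 to 15 CPM elsewhere, and 6 erythroid markers summed to 853 CPM in liver replicate 2 against at most 9.04 CPM elsewhere. The 18 hepatocyte markers summed to 51.3, 18.3 and 20.6 CPM in the liver libraries and to 13.0, 11.4 and 10.5 CPM in the subcutaneous ones. Each pair of a liver and a subcutaneous library shared 18 to 49 cell barcodes, at most 1.04% of the smaller library.

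Cells sense low oxygen through hypoxia-inducible factors, transcription factors that are hydroxylated and destroyed when oxygen is plentiful and that otherwise bind a short core motif in the promoters of genes for glycolysis, angiogenesis and matrix modification. Heat shock proteins are chaperones induced when proteins misfold, and metallothioneins bind zinc and copper and are induced by metals, glucocorticoids and stress. Liver is a frequent site of metastasis of small cell lung cancer, whose cells resemble pulmonary neuroendocrine cells.

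Among 13929 genes tested with edgeR's quasi-likelihood test on UMIs summed per library, 394 (2.83%) passed an adjusted p of 0.05. Of these, 130 (0.933% of the genes tested) were higher in liver tumour cells and 264 (1.90%) were higher in subcutaneous tumour cells. Counts of called members of the gene lists below are to be set beside these shares. The threshold of a 2-fold difference was exceeded by 61 of the first and 123 of the second. The median log2 fold change, given throughout as liver over subcutaneous, was -0.0059 over all genes tested, 0.91 over the called genes higher in liver and -0.96 over those higher in subcutaneous tumours. All 394 called genes had no overlap between the 3 liver and 3 subcutaneous libraries, as did 24.9% of all genes tested.

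**Figure D1:**
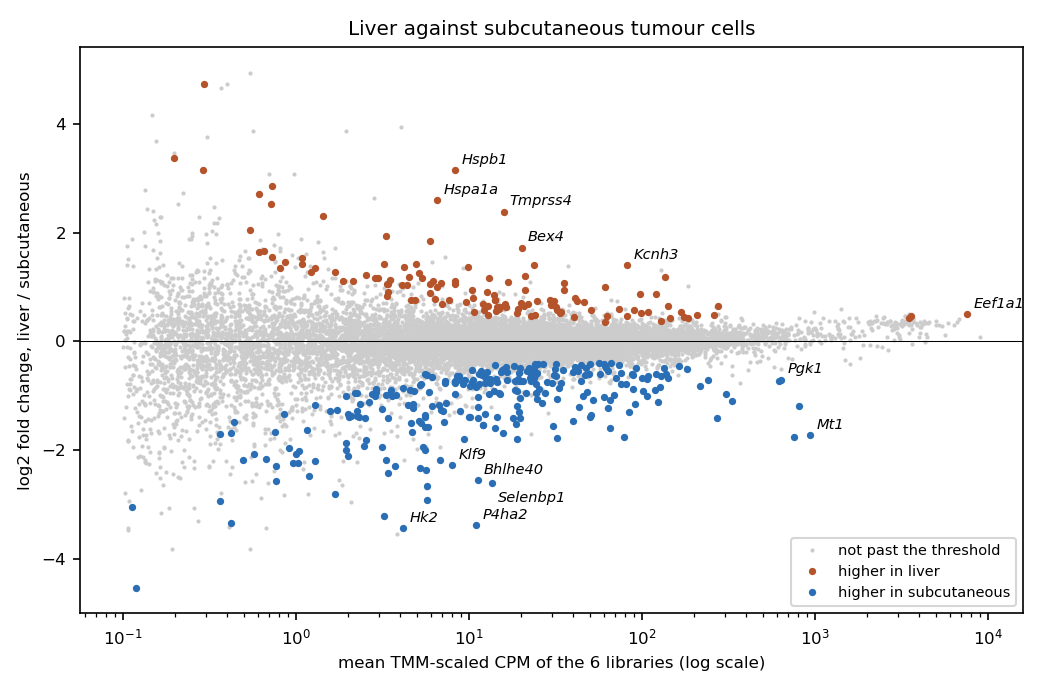
Each point is a gene, with its mean level over the 6 libraries (TMM-scaled CPM, log axis) against its log2 fold change, liver over subcutaneous. The 130 orange genes were higher in liver and the 264 blue genes higher in subcutaneous tumour cells at an edgeR adjusted p under 0.05, genes with a mean under 0.1 CPM or a log2 fold change beyond 5 are left off the plot, and the named genes at the far ends are P4ha2 and Hk2 below and Hspb1 and Hspa1a above.

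The number of called genes depended on single libraries. It was 1025 without subcutaneous replicate 1 (411 higher in liver), 292 without liver replicate 3, 191 and 168 without brain replicate 1 or 2, 122 without subcutaneous replicate 3, 63 without subcutaneous replicate 2, 54 without liver replicate 1 and 33 without liver replicate 2. Every called gene that could be tested kept its direction in these 8 fits. A core of 30 genes passed the threshold in each of them. Those higher in subcutaneous tumour cells were Hk2, P4ha2, Car9, Coro6, Selenbp1, Bhlhe40, Bmp2, Klf9, Shisa2, Ffar4, Mt2, Mt1, Cited1, Ero1l, P4ha1, Pfkfb3, Elf3, Bnip3, Egln3, Aldoa, Ankrd37, Flrt3 and Arl4a. Those higher in liver tumour cells were Hspb1, Hspa1a, Tmprss4, Bex4, Pkp3, Mapk13 and Eef1a2. Any other gene described below as higher at a site lost the threshold in at least 1 of the 8 fits.

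Genes of the hypoxia response were higher in subcutaneous tumour cells. P4ha2 (chromosome 11, 54100095 to 54131665), a subunit of the enzyme that hydroxylates prolines of collagen, had levels of 1.92, 1.82 and 2.01 CPM in the liver libraries and 18.4, 22.1 and 19.5 CPM in the subcutaneous libraries. Every subcutaneous library was far above every liver library, and the log2 fold change was -3.38 ± 0.13 (here and below ± is the standard error; adjusted p = 9.71e-06 in edgeR), a 10.4-fold difference. Hk2 (chromosome 6, 82725025 to 82774454), the hexokinase induced in glycolytic tumours, stood at 0.756, 0.666 and 0.663 CPM in liver and at 10.3, 6.71 and 5.82 CPM in subcutaneous libraries. Its groups were as clearly apart, with the highest level in subcutaneous replicate 1, and its log2 fold change was -3.44 ± 0.26 (adjusted p = 0.000522 in edgeR).

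Car9 (chromosome 4, 43506966 to 43513729), a carbonic anhydrase of the cell surface, was at 0.475, 0.932 and 0.442 CPM in liver and at 5.98, 5.71 and 5.63 CPM in subcutaneous libraries. The subcutaneous libraries nearly coincided, and the log2 fold change was -3.22 ± 0.36 (adjusted p = 0.00402 in edgeR). Bnip3, a mitochondrial protein that takes part in mitophagy, was at 171, 132 and 143 CPM in liver and at 351, 466 and 362 CPM in subcutaneous libraries (log2 fold change -1.40 ± 0.13, adjusted p = 0.00203 in edgeR). Its lowest subcutaneous library lay above its highest liver library.

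The promoters of these 4 genes are shown because they hold the core of the hypoxia response element. The sequences are the 250 bases before the start of transcription in RefSeq (assembly GRCm38.p6), written 5' to 3' on the strand of the gene. Each ACGTG or GCGTG, read on either strand, is in capitals. The gene positions above are from the GENCODE annotation, whose starts can differ from those of RefSeq. The P4ha2 window lies inside the GENCODE span of the gene. The Car9 window runs past its GENCODE start, and its match lies past that start.
P4ha2 promoter, chr11:54100674-54100923, + strand: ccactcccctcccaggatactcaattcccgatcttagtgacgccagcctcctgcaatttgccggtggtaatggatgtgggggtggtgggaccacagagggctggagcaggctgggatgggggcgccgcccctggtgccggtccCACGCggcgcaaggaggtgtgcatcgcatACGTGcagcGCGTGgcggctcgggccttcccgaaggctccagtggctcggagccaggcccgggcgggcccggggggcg
Hk2 promoter, chr6:82774455-82774704, - strand: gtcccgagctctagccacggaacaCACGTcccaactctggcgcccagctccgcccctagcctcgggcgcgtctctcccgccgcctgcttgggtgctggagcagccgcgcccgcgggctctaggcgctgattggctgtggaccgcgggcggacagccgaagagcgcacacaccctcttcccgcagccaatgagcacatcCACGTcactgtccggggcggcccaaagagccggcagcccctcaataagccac
Car9 promoter, chr4:43506776-43507025, + strand: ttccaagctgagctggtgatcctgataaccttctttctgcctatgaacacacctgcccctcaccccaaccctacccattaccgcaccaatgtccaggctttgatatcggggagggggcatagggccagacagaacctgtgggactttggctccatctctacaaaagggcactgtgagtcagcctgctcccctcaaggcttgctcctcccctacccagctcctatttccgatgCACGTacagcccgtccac
Bnip3 promoter, chr7:138909507-138909756, - strand: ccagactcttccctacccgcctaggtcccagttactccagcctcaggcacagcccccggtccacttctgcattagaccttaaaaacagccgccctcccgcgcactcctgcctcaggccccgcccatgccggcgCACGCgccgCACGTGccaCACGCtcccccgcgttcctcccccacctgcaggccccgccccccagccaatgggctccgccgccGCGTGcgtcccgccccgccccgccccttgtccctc
The P4ha2 window holds 3 matches, that of Hk2 holds 2, that of Car9 holds 1 and that of Bnip3 holds 5, some of which overlap. Some genes have several windows in the set, and a gene was counted by the window with the most matches. Counted so, 41.5% of 27025 genes hold at least 1 match and 18.7% hold at least 2. Among the 21 members of the hypoxia list called in this comparison, 16 had a promoter in the set, all 16 held a match and 14 held at least 2. Bhlhe40, Ero1l, Ndrg1, Plod2 and Zfp395 had no entry. Among the 14 members that were tested and not called, 13 had a promoter in the set, 12 held a match and 7 held at least 2. Of these, 6 had several windows, against 2 of the called members. With only the window listed first for each gene, 16 called and 9 uncalled members held a match. A match describes letters and not a bound site.

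Of the 35 genes of the hypoxia list, all of which were tested, 21 were called higher in subcutaneous tumour cells and 0 in liver, against 1.90% of all genes called higher in subcutaneous cells. The median log2 fold change of the list was -1.10, against -0.0059 over all genes. The list's levels did not overlap between the sites, with subcutaneous higher, for 28 members (12.8% of all genes), and with liver higher for 1 member, Rab20. The called count was 25 without subcutaneous replicate 1, and over the 8 fits that left out 1 library it lay between 10 (without liver replicate 2) and 25.

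The called members covered several roles. Among sensors and regulators, Bhlhe40, a transcriptional repressor, stood at 3.41, 2.77 and 3.53 CPM in liver against 22.0, 19.4 and 15.9 CPM in subcutaneous libraries (log2 fold change -2.56 ± 0.21, adjusted p = 0.000706 in edgeR). Egln3, a prolyl hydroxylase that marks hypoxia-inducible factors for destruction, had a log2 fold change of -1.35. Egln1, the main such hydroxylase, was not called (-0.48, edgeR adjusted p = 0.16). For mitochondria, Higd1a and Fam162a had log2 fold changes of -1.10 and -0.97, and both had no overlap of the sites.

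Among secreted products, Adm, a vasodilator peptide, had levels of 1.49, 1.02 and 1.04 CPM in liver and 3.84, 6.74 and 5.63 CPM in subcutaneous libraries (log2 fold change -2.19 ± 0.38, adjusted p = 0.0251 in edgeR). Stc2, a glycoprotein hormone, was at 3.15, 1.69 and 2.54 CPM in liver and at 4.87, 14.4 and 14.2 CPM in subcutaneous libraries, lowest of the latter in replicate 1 (log2 fold change -2.18 ± 0.44, adjusted p = 0.0413 in edgeR). Vegfa, the angiogenic growth factor, was at 13.6, 8.81 and 6.52 CPM in liver and at 34.7, 24.2 and 21.4 CPM in subcutaneous libraries. Its groups did not overlap, but it did not pass the threshold (log2 fold change -1.47 ± 0.33, adjusted p = 0.055 in edgeR).

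Hypoxia genes were concentrated in a subset of the subcutaneous cells. Each cell was thinned to 3000 UMIs, which left 4053, 4072 and 4540 liver cells and 3983, 6103 and 4724 subcutaneous cells. The median number of UMIs over the hypoxia list was 8 in each liver library and 8, 13 and 10 in the subcutaneous libraries. The 95th percentile was 21, 19 and 19 UMIs in liver and 46, 50 and 47 UMIs in subcutaneous libraries. Cells with at least 25 such UMIs were 2.59%, 1.94% and 2.00% of the liver cells and 19.5%, 28% and 22.3% of the subcutaneous cells. The median of subcutaneous replicate 1 equalled the liver value, while the upper end of every subcutaneous library lay above that of every liver library. Cells with 20 to 29 UMIs, near this bound, numbered 155 to 201 per liver library and 402 to 867 per subcutaneous library, so the bound marks a range and not a cell type.

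**Figure D2:**
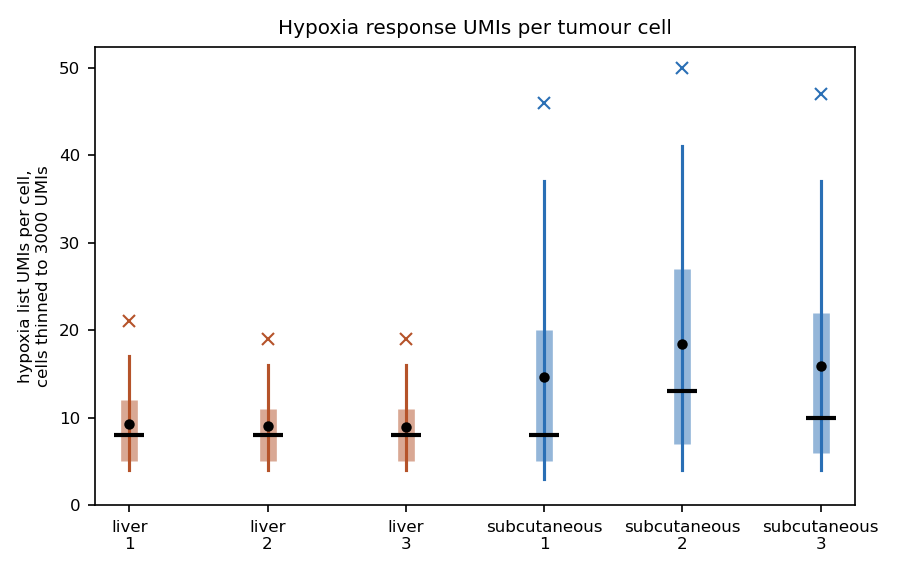
The vertical axis is the number of UMIs over the 35 hypoxia list genes in tumour cells thinned to 3000 UMIs, by library on the horizontal axis. Black bars are medians, black dots means, boxes the 25th to 75th percentile, lines the 10th to 90th percentile and crosses the 95th percentile; the crosses lie at 19 to 21 UMIs in liver and 46 to 50 UMIs in subcutaneous libraries.

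Single genes followed the same cells. Among subcutaneous cells with a P4ha2 UMI (183, 361 and 245 cells), the mean over the other hypoxia genes was 41.4, 42.6 and 43.3 UMIs, against 13.3, 16.8 and 14.3 UMIs in the cells without one. Selenbp1, a selenium-binding protein that is not in the list, was at 3.48, 4.26 and 3.71 CPM in liver and at 24.1, 26.5 and 19.0 CPM in subcutaneous libraries (log2 fold change -2.60 ± 0.16, adjusted p = 0.000188 in edgeR). Subcutaneous cells with a Selenbp1 UMI had means of 40.1, 41.3 and 41.0 hypoxia UMIs, against 13.0, 16.8 and 14.5 in cells without. For Klf9, a zinc finger transcription factor, the means in cells with and without a UMI were nearer, 24.1, 27.6 and 25.4 against 14.2, 18.1 and 15.5 UMIs. In the liver libraries, cells with a P4ha2 UMI (25, 22 and 25 cells) had means of 16.7, 16.4 and 20 hypoxia UMIs.

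Part of the glycolysis genes were higher in subcutaneous cells too. Of 21 glycolysis genes tested, 7 were called higher in subcutaneous cells (1.90% of all genes were) and 0 in liver. The median log2 fold change of the 21 was -0.43. Aldoa, the main aldolase of glycolysis, had levels of 553, 482 and 437 CPM in liver and 1026, 1320 and 1022 CPM in subcutaneous libraries (log2 fold change -1.19 ± 0.13, adjusted p = 0.00357 in edgeR). Slc2a1, a glucose transporter, Pfkp, a phosphofructokinase, and Slc16a3, a lactate exporter, had log2 fold changes of -1.22, -1.39 and -1.11. Bsg, the chaperone of lactate transporters, was also higher in subcutaneous cells (-0.73). Gapdh and Ldha were not called, at log2 fold changes of -0.11 and -0.43. Slc2a1, Hk2, Pgk1 and Ldha belong to both lists. The glycolysis count ranged from 2 without liver replicate 1 to 15 without subcutaneous replicate 1.

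Among 18 tested genes of collagen modification, 5 were called higher in subcutaneous cells (1.90% of all genes were) and 0 in liver. P4ha1, P4ha2, Plod2 and Lox also belong to the hypoxia list, so this count is not separate from that of the hypoxia list. The 5 called genes included P4ha1, an alternative isoform to P4ha2. P4ha1 was at 21.6, 22.3 and 19.5 CPM in liver and 46.8, 70.3 and 57.9 CPM in subcutaneous libraries (log2 fold change -1.47 ± 0.15, adjusted p = 0.00299 in edgeR). The lysyl hydroxylases Plod2 and Plod1 had log2 fold changes of -1.29 and -0.71. Of 48 tested collagens, laminins and integrins, edgeR called 0 (10 at an unadjusted p under 0.05) and DESeq2 called 1.

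The comparison was repeated in cells with under 0.5% of their UMIs from the hypoxia list, an alternative chosen after seeing the data. These cells were 87.9%, 90.3% and 89.8% of the liver tumour cells and 68.1%, 55.9% and 64.1% of the subcutaneous ones, and 220 to 374 cells per library lay between 0.45% and 0.55%. In them, 150 genes were called, 79 higher in liver and 71 higher in subcutaneous cells. Of the 369 called genes outside the hypoxia list that could be tested, 136 were called again in the same direction. For the members of the list itself, values in these cells follow from how the cells were chosen. EdgeR called 0 of them there (9 at an unadjusted p under 0.05), and P4ha2 had a log2 fold change of -0.71.

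Genes outside the list differed in how far they moved in this comparison. A gene found mostly in cells high in hypoxia UMIs also moves toward 0 by how the cells were chosen. Such a fall is therefore not a result separate from that choice. Selenbp1 went from -2.60 to -0.16, Aldoa from -1.19 to -0.01, Nupr1 from -1.77 to 0.15 and Bsg from -0.73 to -0.03, and none of these 4 was called. Bmp2 (-2.08), Klf9 (-1.56), Mt1 (-1.36), Mt2 (-1.41), Ffar4 (-1.17), Shisa8 (-2.87), Dll1 (-1.50) and Nrp1 (-1.81) remained called and higher in subcutaneous cells. Hspb1 (3.29), Hspa1a (3.51), Tmprss4 (2.43) and Bex4 (1.67) remained called and higher in liver cells.

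**Figure D3:**
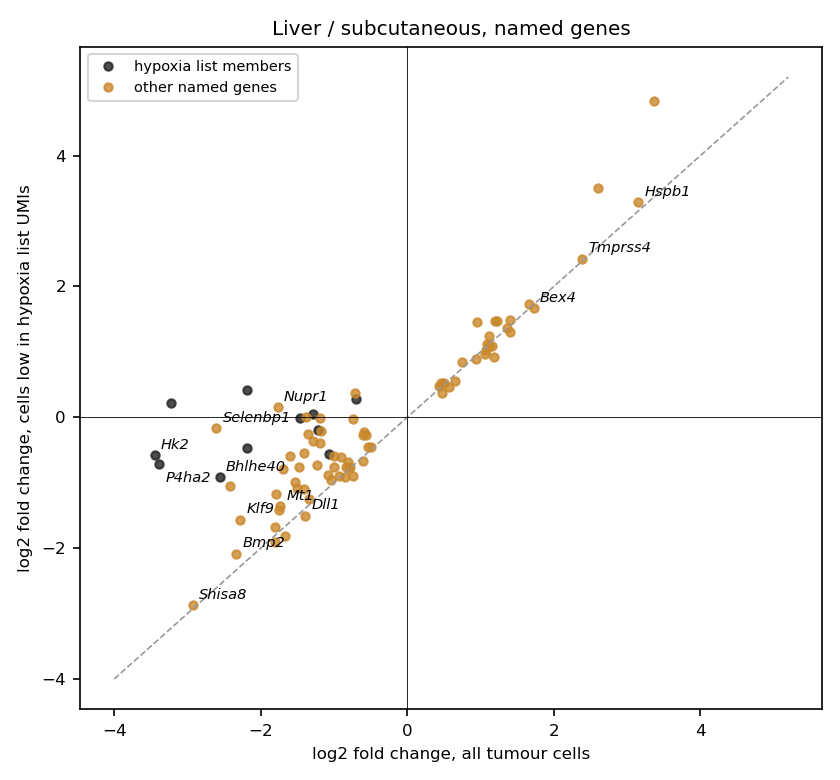
Each point is a named gene, with its log2 fold change (liver over subcutaneous) in all tumour cells on the horizontal axis and in cells low in hypoxia list UMIs on the vertical axis; the dashed line marks equal values. Hspb1, Tmprss4, Bex4, Shisa8, Bmp2 and Dll1 lie near the line, and Selenbp1, Nupr1, Hk2 and P4ha2 lie nearer to 0 in the low hypoxia cells.

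The metallothioneins were higher in subcutaneous cells. Mt1 (chromosome 8, 94179082 to 94180327) had levels of 491, 366 and 442 CPM in liver and 1583, 1355 and 1377 CPM in subcutaneous libraries, a 3.32-fold difference (log2 fold change -1.73 ± 0.16, adjusted p = 0.00178 in edgeR). Its neighbour Mt2 (chromosome 8, 94172664 to 94173568) had levels of 385, 281 and 373 CPM in liver and 1355, 1009 and 1145 CPM in subcutaneous libraries (log2 fold change -1.76 ± 0.20, adjusted p = 0.00402 in edgeR). For both genes the groups were widely apart, and liver replicate 2 and subcutaneous replicate 1 were the extremes. Mt3, known from neurons, had a smaller log2 fold change of -0.85 (edgeR adjusted p = 0.0223).

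The Mt2 promoter is shown because it holds the most matches to the metal response element among the 3 metallothioneins. Capitals mark TGCACNC or TGCGCNC on either strand, where N is any base, in the same RefSeq window and assembly as above.
Mt2 promoter, chr8:94172368-94172617, + strand: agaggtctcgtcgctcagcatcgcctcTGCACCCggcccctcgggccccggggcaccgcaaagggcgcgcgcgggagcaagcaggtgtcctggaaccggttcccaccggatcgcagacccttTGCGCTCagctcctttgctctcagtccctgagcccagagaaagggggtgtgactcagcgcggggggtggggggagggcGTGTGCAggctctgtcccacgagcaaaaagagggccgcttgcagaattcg
The Mt2 window holds 3 matches, that of Mt1 holds 1 and that of Mt3 holds 0, and 23.8% of genes hold at least 1, counted as above.

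Mt1 and Mt2 are also targets of the glucocorticoid receptor. Of 13 genes in a list of glucocorticoid targets, 6 were called higher in subcutaneous cells and 0 in liver, with a median log2 fold change of -0.77. Klf9 (chromosome 19, 23141226 to 23168134) stood at 3.07, 2.57 and 2.5 CPM in liver and at 18.1, 10.3 and 11.2 CPM in subcutaneous libraries, highest in replicate 1 (log2 fold change -2.28 ± 0.23, adjusted p = 0.00258 in edgeR). Nr3c1, the receptor itself, and the cell cycle inhibitors Cdkn1a and Cdkn1c had log2 fold changes of -0.77, -0.89 and -0.91. Other members known as strong targets of the hormone were not called. Fkbp5 was at 24.7, 25.3 and 23.4 CPM in liver and 22.3, 25.8 and 26.1 CPM in subcutaneous libraries (log2 fold change -0.02 ± 0.10, adjusted p = 0.95 in edgeR). Tsc22d3 had a log2 fold change of -0.05 ± 0.10. The list's called count was between 3 and 7 when 1 library was left out.

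Of 19 circadian clock genes, 6 were called higher in subcutaneous cells and 0 in liver. They were Bhlhe40, Nfil3 (-1.36), Ciart (-1.29), Rora (-1.06), Arntl (-0.80) and Cry2 (-0.57), in log2 fold change. They include repressors (Bhlhe40, Nfil3, Ciart, Cry2) and activators (Rora, Arntl) of clock transcription. Per1 was not called (0.40, edgeR adjusted p = 0.26). Bhlhe40, Bhlhe41 and Rora also belong to the hypoxia list, so their values in low hypoxia cells follow from how those cells were chosen. In low hypoxia cells edgeR called 0 of the clock genes, these included (7 at an unadjusted p under 0.05). Without liver replicate 1 or liver replicate 2, Bhlhe40 was the 1 called member.

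Stress responses to amino acid shortage and to misfolded proteins were also higher in part. Of 28 genes of the amino acid response, 8 were called higher in subcutaneous cells and 0 in liver (median log2 fold change -0.35). Stc2 belongs to both this list and the hypoxia list. Nupr1, a stress-induced chromatin protein, was at 51.1, 28.1 and 27.5 CPM in liver and at 115, 122 and 126 CPM in subcutaneous libraries (log2 fold change -1.77 ± 0.27, adjusted p = 0.0190 in edgeR). Its liver replicate 1 was the highest of that site and still far below the subcutaneous libraries. Vldlr, a lipoprotein receptor, Sesn2, an inhibitor of growth signalling, and Slc7a11, a cystine transporter, had log2 fold changes of -2.42, -1.60 and -1.48. Atf4, the transcription factor of this response, and its target Asns were not called, at log2 fold changes of -0.53 and -0.23. The called count fell to 0 without liver replicate 2 and was 12 without subcutaneous replicate 1.

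Of 18 endoplasmic reticulum stress genes, 5 were called higher in subcutaneous cells and 0 in liver. Herpud1, which takes part in degradation of misfolded proteins, was at 36.4, 29.5 and 47.3 CPM in liver and at 70.8, 107 and 87.3 CPM in subcutaneous libraries (log2 fold change -1.23 ± 0.20, adjusted p = 0.0202 in edgeR). The chaperone partners Dnajb9, Dnajc3 and Sdf2l1 had log2 fold changes of -1.0, -0.60 and -0.59. The count was 0 without liver replicate 1, liver replicate 2, subcutaneous replicate 2 or subcutaneous replicate 3, and 9 without subcutaneous replicate 1. Of 22 immediate early genes, Klf4 (-1.53), Egr2 (-1.50) and Junb (-0.81) were called higher in subcutaneous cells, and 0 were called without any 1 of those 4 libraries. Fos, with a log2 fold change of -0.74, was not called. Of 21 targets of p53, 5 were called higher in subcutaneous cells (1.90% of all genes were): Sesn2, Plk2 (-1.41), Gdf15 (-1.19), Gadd45a (-0.93) and Cdkn1a. Sesn2 also belongs to the amino acid list and Cdkn1a to the glucocorticoid list, so this count is not separate from theirs. The called count of p53 targets was 0 without liver replicate 1, liver replicate 2 or subcutaneous replicate 2.

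Several ligands and transcription factors were higher in subcutaneous cells. Bmp2 (chromosome 2, 133552159 to 133562885), a bone morphogenetic protein, was at 1.94, 1.84 and 1.37 CPM in liver and at 8.31, 9.71 and 8.01 CPM in subcutaneous libraries, a 5.04-fold difference (log2 fold change -2.33 ± 0.17, adjusted p = 0.000466 in edgeR). Its brain libraries stood at 8.37 and 9.47 CPM, at the subcutaneous level. In the same list of 29 genes of TGF-beta and BMP signalling, the receptor Acvr2a (-0.54) and the pseudoreceptor Bambi (-1.08) were called higher in subcutaneous cells, and Tgfb1 (0.57) higher in liver. Over all genes, 1.90% were called higher in subcutaneous cells and 0.933% higher in liver.

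Dll1, a Notch ligand, was at 5.08, 5.19 and 6.41 CPM in liver and at 18.4, 13.1 and 12.5 CPM in subcutaneous libraries (log2 fold change -1.40 ± 0.22, adjusted p = 0.0201 in edgeR). Dll4, another Notch ligand, had a log2 fold change of -0.74 ± 0.12 (adjusted p = 0.0211 in edgeR), and these were the 2 called genes among 20 tested of Notch signalling. Among 21 lineage and Myc family transcription factors, Mycn was at 12.8, 11.8 and 14 CPM in liver and at 34.3, 23.2 and 21.8 CPM in subcutaneous libraries (log2 fold change -1.04 ± 0.17, adjusted p = 0.0212 in edgeR). Myc (-1.18) and Foxa2 (-0.61), a factor of foregut and neuroendocrine cells, were the other called members, and 0 of the list were called higher in liver. In low hypoxia cells Mycn (-0.96) and Foxa2 (-0.67) remained called, while Myc (-0.21) did not. For Dll1, Mycn and Foxa2 the highest subcutaneous library was replicate 1. Dll1 and Mycn lost the threshold without liver replicate 1 or 2, with log2 fold changes of -1.51 to -1.20 and -1.16 to -0.81 over the 8 fits.

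The remaining largest differences toward subcutaneous cells were in genes of mixed function. Shisa8, a protein associated with glutamate receptors, was at 1.53, 0.644 and 1.79 CPM in liver and at 17.6, 6.30 and 6.43 CPM in subcutaneous libraries (log2 fold change -2.92 ± 0.51, adjusted p = 0.0307 in edgeR). Subcutaneous replicate 1 was well above the other subcutaneous libraries. The gene kept its call without that library and lost it in 5 of the 8 fits, with log2 fold changes of -3.20 to -2.26. Ffar4, a receptor for long-chain fatty acids, was at 14.8, 13.3 and 15.5 CPM in liver and at 47.7, 58.2 and 44.4 CPM in subcutaneous libraries (log2 fold change -1.79 ± 0.12, adjusted p = 0.000384 in edgeR). The neuronal surface protein Lingo1 (-1.80), the synapse organiser Cbln4 (-1.80), the membrane phosphodiesterase Smpdl3b (-1.69), the microtubule protein Mapt (-1.01) and the growth cone protein Gap43 (-0.78) were also called. Mapt and Gap43 were the 2 called genes among 29 of axon growth and neuronal cytoskeleton (1.90% of all genes were called higher in subcutaneous cells).

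**Figure D4:**
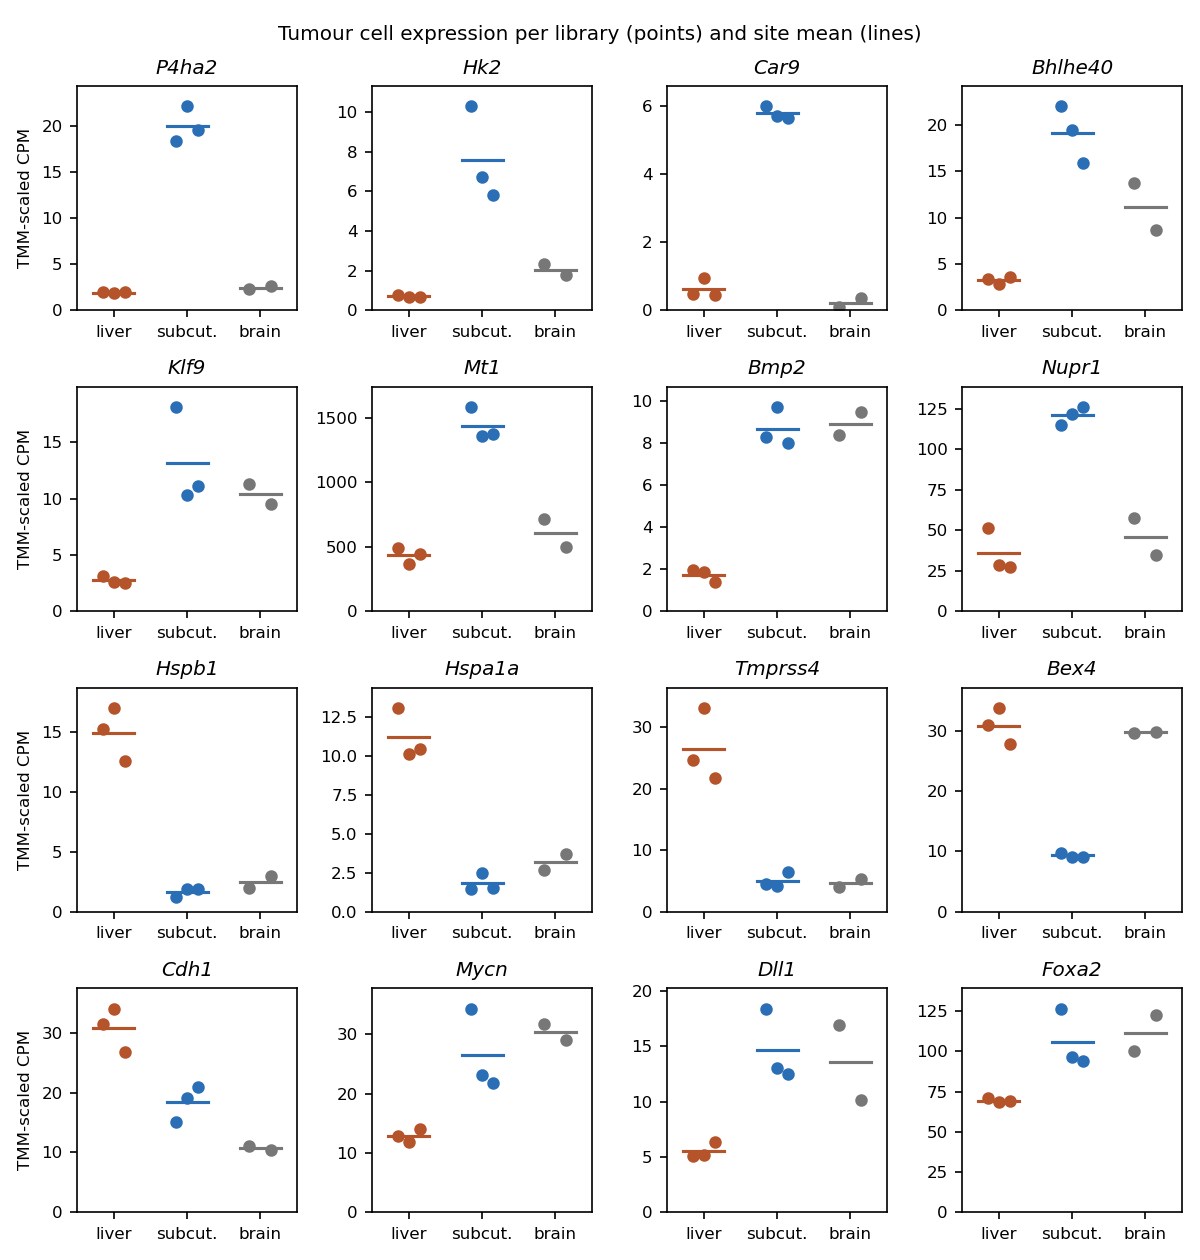
TMM-scaled CPM of 16 genes in tumour cells, 1 point per library and a line at the mean of each site, with the 2 brain libraries beside the 3 liver and 3 subcutaneous libraries; every vertical axis starts at 0 and the scales differ between genes. No liver point overlaps a subcutaneous point in any of the 16 genes, and for Bmp2 the brain libraries lie among the subcutaneous ones while for Bex4 they lie among the liver ones.

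The heat shock genes Hspb1 and Hspa1a had the largest differences toward liver among called genes with at least 10 CPM in liver. Hspb1 (chromosome 5, 135887919 to 135889563), a small heat shock protein that binds unfolded proteins, had levels of 15.3, 17.0 and 12.6 CPM in liver and 1.23, 1.90 and 1.87 CPM in subcutaneous libraries, an 8.90-fold difference (log2 fold change 3.15 ± 0.22, adjusted p = 0.0004 in edgeR). Hspa1a (chromosome 17, 34969190 to 34972156), an inducible Hsp70 chaperone, had levels of 13.1, 10.1 and 10.5 CPM in liver and 1.47, 2.48 and 1.54 CPM in subcutaneous libraries (log2 fold change 2.61 ± 0.24, adjusted p = 0.00178 in edgeR). Every liver library was several times every subcutaneous library for both genes. The brain libraries stood at 2.00 and 2.95 CPM for Hspb1 and at 2.67 and 3.70 CPM for Hspa1a. Of liver cells thinned to 3000 UMIs, 2.29%, 2.63% and 1.41% had an Hspb1 UMI and 1.33%, 1.25% and 0.903% an Hspa1a UMI. The subcutaneous shares were 0.402%, 0.508% and 0.529% for Hspb1 and 0.326%, 0.360% and 0.360% for Hspa1a. At this depth both differences rest on a small part of the liver cells. How evenly the UMIs were spread over cells was not tested. Hspa1b, a nearly identical copy next to Hspa1a, was also called (3.37), at under 0.5 CPM in every library. Reads of the copies can be split between them, so the level of each is uncertain.

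Both promoters are shown because each holds the core of the heat shock element, GAANNTTC, in capitals, in the same RefSeq window and assembly as above. The motif reads the same on both strands.
Hspb1 promoter, chr5:135887669-135887918, + strand: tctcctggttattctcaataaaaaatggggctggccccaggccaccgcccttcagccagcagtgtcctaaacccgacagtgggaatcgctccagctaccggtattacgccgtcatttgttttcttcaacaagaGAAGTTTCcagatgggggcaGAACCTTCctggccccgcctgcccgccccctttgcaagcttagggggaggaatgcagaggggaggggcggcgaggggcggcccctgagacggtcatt
Hspa1a promoter, chr17:34972157-34972406, - strand: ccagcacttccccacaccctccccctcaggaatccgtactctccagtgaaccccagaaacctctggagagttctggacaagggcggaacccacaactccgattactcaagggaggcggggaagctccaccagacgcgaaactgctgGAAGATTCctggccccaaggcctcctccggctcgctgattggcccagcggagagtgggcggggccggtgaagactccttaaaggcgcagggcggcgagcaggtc
The Hspb1 window holds 2 matches and that of Hspa1a holds 1, and 7.73% of genes hold at least 1, counted as above. Of 11 genes of the heat shock list with a promoter in the set, 6 held a match in at least 1 of their windows.

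The rest of the heat shock list did not move with them. Of 14 genes tested, 3 were called higher in liver (Hspb1, Hspa1a and Hspa1b) and 1 in subcutaneous cells, with a median log2 fold change of 0.12. The opposite member was Dnajb1, a co-chaperone of Hsp70, at 71.4, 72.7 and 85.3 CPM in liver and 122, 99.3 and 103 CPM in subcutaneous libraries (log2 fold change -0.50 ± 0.11, adjusted p = 0.0450 in edgeR). Dnajb1 lost the threshold in 6 of the 8 fits without 1 library.

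Tmprss4 and Bex4 were the other genes with the largest differences toward liver and no loss of the threshold in any fit without 1 library. Tmprss4 (chromosome 9, 45172726 to 45204092), a transmembrane serine protease, was at 24.6, 33.2 and 21.8 CPM in liver and at 4.45, 4.22 and 6.50 CPM in subcutaneous libraries (log2 fold change 2.39 ± 0.22, adjusted p = 0.00185 in edgeR). It was the only 1 of 13 tested transmembrane proteases and plasminogen activators to be called. Bex4 (chromosome X, 136138996 to 136140443), of a family of small adaptor proteins encoded on the X chromosome, was at 31.0, 33.8 and 27.8 CPM in liver and at 9.80, 9.14 and 9.04 CPM in subcutaneous libraries (log2 fold change 1.73 ± 0.10, adjusted p = 0.000188 in edgeR). Its brain libraries, at 29.7 and 29.9 CPM, lay at the liver level.

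Of 9 tested Bex and Tceal family genes, 3 were called higher in liver (Bex4, Bex1 and Tceal3) and 0 in subcutaneous cells, with a median log2 fold change of 0.16. Bex1 was at 343, 345 and 321 CPM in liver and at 195, 224 and 225 CPM in subcutaneous libraries (log2 fold change 0.65 ± 0.08, adjusted p = 0.00893 in edgeR). Tmprss4 and Bex4 did not follow the hypoxia genes within the subcutaneous libraries. Cells with a Tmprss4 UMI (45, 75 and 82 cells) had means of 14, 16.3 and 15.7 hypoxia UMIs, against 14.7, 18.4 and 15.9 in cells without.

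Kcnh3, a voltage-gated potassium channel of neurons, was at 141, 125 and 91.4 CPM in liver and at 28.7, 46.6 and 59.7 CPM in subcutaneous libraries (log2 fold change 1.40 ± 0.26, adjusted p = 0.0312 in edgeR). The spread within each site was wide, and the call was lost in 5 of the 8 fits without 1 library, with log2 fold changes of 1.17 to 1.65. Kcnh3 and Kcnip4, a channel-interacting protein (1.22), were the 2 called genes among 91 channel genes, both toward liver. Over all genes tested 2.83% were called in either direction, and the channel count is near that share. Sfrp5, a secreted inhibitor of Wnt signalling, was at 203, 223 and 138 CPM in liver and at 52.4, 95.4 and 100 CPM in subcutaneous libraries (log2 fold change 1.18 ± 0.25, adjusted p = 0.0469 in edgeR), and was the only called gene among 26 of Wnt signalling. It lost the threshold in 6 of the 8 fits, with log2 fold changes of 0.94 to 1.36. Further genes with large differences toward liver were Cd164l2 (1.40), Smoc2 (1.36), Mslnl (1.16), Cpne5 (1.09), Nudt13 (1.08) and Zranb3 (1.06).

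Epithelial genes were called toward liver in small number. Of 31 tested genes of epithelial junctions and keratins, 3 were called higher in liver and 1 in subcutaneous cells (0.933% and 1.90% of all genes). The median log2 fold change of the list was 0.28, and 27 of 31 were above 0. Cdh1 (chromosome 8, 106603351 to 106670246), the cadherin of epithelial junctions, was at 31.5, 34.0 and 26.8 CPM in liver and at 15.1, 19.0 and 20.9 CPM in subcutaneous libraries (log2 fold change 0.74 ± 0.14, adjusted p = 0.0303 in edgeR). Esrp2, a splicing factor of epithelial cells, and Rab25, a regulator of vesicle recycling in them, had log2 fold changes of 1.12 and 0.95. Outside the list, Pkp3, a desmosomal plaque protein (1.12), and Ap1m2, an epithelial clathrin adaptor subunit (1.20), were also higher in liver. Elf3, an epithelial ETS transcription factor, went the other way, at 8.73, 10.3 and 10.3 CPM in liver and 32.0, 23.9 and 22.3 CPM in subcutaneous libraries (log2 fold change -1.41 ± 0.15, adjusted p = 0.00357 in edgeR). In low hypoxia cells Elf3 had a log2 fold change of -0.55 and was not called. Over all tumour cells, Epcam and Krt8 were not called, at log2 fold changes of 0.43 and 0.26. Without liver replicate 1, liver replicate 2 or subcutaneous replicate 2, 0 members were called toward liver. With library totals alone in place of TMM factors, 21 of the 31 were above 0.

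Eef1a1 and 2 ribosomal protein genes were called higher in liver cells. Eef1a1, the elongation factor that brings aminoacyl-tRNA to the ribosome, was at 9714, 9090 and 7912 CPM in liver and at 5796, 6642 and 6407 CPM in subcutaneous libraries (log2 fold change 0.50 ± 0.10, adjusted p = 0.0358 in edgeR). Its call was lost in 6 of the 8 fits that each left out 1 library, and its log2 fold change was 0.45 to 0.58 over all 8. Of 82 tested cytosolic ribosomal protein genes, 2 were called higher in liver (Rps4x, 0.46, and Rpl3, 0.44) and 0 in subcutaneous cells. The median of the list was 0.34, 81 of 82 were above 0, and 46 had no overlap with liver higher (12.1% of all genes did). DESeq2 called 53 of them, all toward liver, and the fit without liver replicate 3 called 32, while 0 were called without any 1 of liver replicates 1 and 2, subcutaneous replicates 2 and 3 and the brain replicates. With library totals alone the median over all genes moved to -0.12, the list's median was 0.22 and 81 of 82 were again above 0. Summed over the list without TMM scaling, levels were 281017, 267071 and 233412 CPM in liver and 239846, 214704 and 213798 CPM in subcutaneous libraries. The list total therefore overlapped, with liver replicate 3 below subcutaneous replicate 1.

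**Figure D5:**
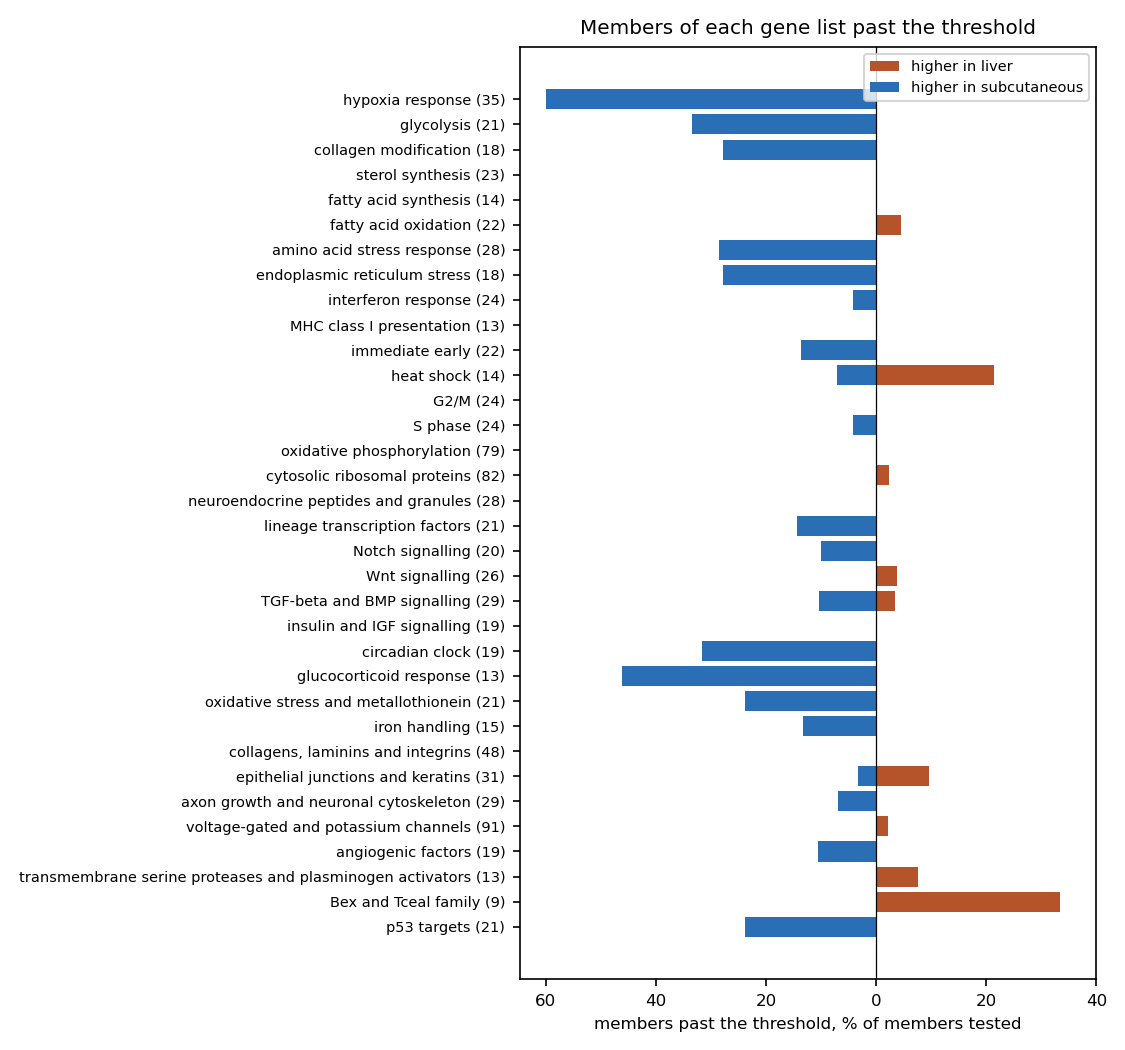
Bars give the share of each gene list's tested members (number in brackets) that passed an edgeR adjusted p of 0.05, to the right for members higher in liver and to the left for members higher in subcutaneous tumour cells. Hypoxia response (21 of 35) and glucocorticoid response (6 of 13) have the longest bars toward subcutaneous, and Bex and Tceal family (3 of 9) and heat shock (3 of 14) the longest toward liver.

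Other groups held few called genes or none, to be set beside the 2.83% of all genes called in either direction. Angiogenic factors had 2 of 19 called higher in subcutaneous cells, Adm, which is also in the hypoxia list, and the receptor Nrp1. Nrp1 was at 2.35, 1.71 and 2.56 CPM in liver and 10.4, 5.19 and 5.63 CPM in subcutaneous libraries (log2 fold change -1.67 ± 0.28, adjusted p = 0.0229 in edgeR). Of 24 interferon response genes only Irf1 was called, higher in subcutaneous cells (-1.34), and of 24 S phase genes only Cdc6 (-0.79). Of 15 iron handling genes Hmox1 (-0.84) and the transferrin receptor Tfrc (-0.56) were called toward subcutaneous cells, and of 22 fatty acid oxidation genes only Cpt1a (0.94), which carries fatty acids into mitochondria, toward liver. By edgeR, 0 of 23 sterol synthesis genes passed, with 10 at an unadjusted p under 0.05 and a median log2 fold change of -0.42, and DESeq2 called 3 of them toward subcutaneous cells. Among 19 insulin and IGF signalling genes (median -0.48) edgeR called 0, with 6 at an unadjusted p under 0.05, and DESeq2 called 4 toward subcutaneous cells. Among 28 genes of neuroendocrine peptides and granules (median -0.04) edgeR called 0, with 5 at an unadjusted p under 0.05, and DESeq2 called 2. For 24 G2/M genes (median -0.02) edgeR called 0, with 0 at an unadjusted p under 0.05, and DESeq2 called 0. For 14 fatty acid synthesis genes (-0.13) and 13 genes of MHC class I presentation (-0.21), edgeR and DESeq2 called 0, with 2 of each list at an unadjusted p under 0.05. Among 79 oxidative phosphorylation genes (median 0.08) edgeR called 0, with 5 at an unadjusted p under 0.05, and DESeq2 called 1 in each direction. The sign of the last median depended on scaling, since it was -0.04 with library totals alone.

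Of the markers of host cells, 5 were called, all higher in liver. Of 13 tested hepatocyte markers, 4 were called higher in the liver tumour cells (Alb, Apoa2, Apoc3 and Fgb), all from low levels: Alb was at 9.22, 0.799 and 2.92 CPM in liver and at 0, 0.0158 and 0.0185 CPM in subcutaneous libraries. The other called marker was Sfn, from the keratinocyte list, at 1.30, 1.86 and 1.55 CPM in liver and at 0.629, 0.411 and 0.704 CPM in subcutaneous libraries (log2 fold change 1.43 ± 0.30, adjusted p = 0.0422 in edgeR). It was lower at the subcutaneous site, and the other 3 tested keratinocyte markers, Krt14, Krt10 and Lor, were not called (log2 fold changes 0.31, 0.16 and -0.11). All 394 called genes, these 5 included, were called again after leaving out cells with at least 0.5% host marker UMIs. That step left out only 5, 19 and 4 cells of the liver libraries and 19, 0 and 0 of the subcutaneous libraries. So few cells could hardly change the calls, and the step says little about host RNA. The part of free host RNA in the other differences was not tested. None of the named genes is a host marker.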

How the data were processed

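UMI counts were deposited by the authors as a matrix for each library. Per the file headers they are whole numbers written in Cell Ranger 3.0.0 format. The submitters' processing notes name Cell Ranger, STAR and mm10, and the annotation release is not given in the sources used here. The lowest deposited barcode of these 6 libraries had 501 UMIs. Doublets were not removed, and leaving out the 4% deepest cells of each library was an alternative.

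Counts of the chosen tumour cells were summed per library (41703428 to 62047017 UMIs in the liver and subcutaneous libraries), so counting limits the precision of genes near 1 CPM and the spread between 3 libraries that of the rest. They were fitted in R 4.3.3 with edgeR 4.0.16 (TMM factors, filterByExpr, robust quasi-likelihood F tests, Benjamini-Hochberg adjustment over 13929 genes). The model had a mean per site over all 8 libraries, the 2 brain libraries adding to the estimate of the spread (biological coefficient of variation 17.9%, with 5 degrees of freedom left). Standard errors were obtained from each fold change and its F value. Untested genes made up 0.0134% of UMIs. Levels are TMM-scaled CPM without a pseudocount, and figures used matplotlib 3.10.9. Gene positions are those of GENCODE M21 (GRCm38) for 21952 of 22056 genes (99.5%), and promoters those of RefSeq on GRCm38.p6. The test was also run on simulated counts with 1 spread for every gene and library. That setting cannot show how the test behaves with a library that stands apart, such as subcutaneous replicate 1.

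The members and gene lists were chosen with earlier results of these data known. Named genes are the 14 per direction with the largest change among called genes with at least 10 CPM at the higher site and no overlap, the 5 most abundant called genes per direction, and up to 4 called members per direction of each list. Bnip3, Egln3, Higd1a and other list members beyond these were added as examples after their values were seen. Replicate numbers did not pair the libraries: deviations of same-numbered libraries correlated at 0.179, -0.123 and 0.233. Subcutaneous replicate 1 correlated at 0.179 and 0.126 with liver replicates 1 and 2 and at -0.286 with liver replicate 3. Subcutaneous replicates 2 and 3 correlated at 0.291 and 0.233 with liver replicate 3 and negatively with liver replicates 1 and 2. The model does not account for this grouping across sites, and its source was not tested. Alternatives covered DESeq2 1.42.0, other scaling, other gene and cell filters, cells thinned to equal depth or drawn in equal number, the replicate number as a block and leaving out each library.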

Additional observations from a re-analysis of the deposited data

How the results depend on the processing

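All 394 called genes that could be tested kept their direction in each of 25 other ways of processing, and 25 genes were called in all of them. The number called was 1055 with DESeq2 (445 higher in liver, 610 in subcutaneous cells), 713 with library totals alone (601 in subcutaneous cells; 15.7% of calls were toward liver, against 33.0% with TMM factors) and 81 over all deposited cells (24 and 57). With the replicate block it was 235 (70 and 165), of which 209 were among the 394. In low hypoxia cells, chosen after seeing the data, it was 150 (79 and 71). Leaving out 1 library gave 33 to 1025 calls, 8 to 411 higher in liver and 25 to 614 higher in subcutaneous cells. The replicate numbers do not pair the libraries, and subcutaneous replicate 2 deviated most like liver replicate 3 (correlation 0.291), so the block was not used. The other alternatives left these counts within 1.5 times. For the 86 named genes, 1698 of 2224 values kept the call, 520 lost it and 6 changed direction, all 6 in low hypoxia cells: the log2 fold change was 0.15 for Nupr1, 0.28 for Pgk1, 0.21 for Car9, 0.044 for Plod2, 0.37 for Plod1 and 0.41 for Adm, and none was called. The cells there were chosen by UMIs of the hypoxia list, which holds 4 of these genes. For the other changes the cause was not tested. Depth limits the lowest genes, whose levels under 1 CPM rest on few UMIs per library.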
